A study of Mus musculus with 11 samples.

Results

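Choroid plexus epithelial cells were examined in single-cell RNA sequencing of brain vessel preparations from R182C-TgN3 mice, a model of the small vessel disease CADASIL, and from WT-TgN3 control mice. Their own RNA counts chose them. A cell was taken when Ttr made up at least 5% of its unique molecular identifiers (UMIs, each standing for 1 RNA molecule), when Folr1, Clic6, Kl and Enpp2 gave at least 2 UMIs together, and when the endothelial genes Cldn5 and Flt1 gave at most 3 UMIs together. A further condition was a minimum of 500 genes with a UMI, and mitochondrial genes could give no more than 10% of the UMIs. Of 61625 cells that passed the gene and mitochondrial limits, out of 66658 barcodes, 179 were choroid plexus epithelial cells by this rule. A wider set that allowed 20% mitochondrial UMIs, called the 20% limit, held 619 of 63698 cells.

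The mice were untreated, and each gave 1 library of cells enriched with beads against the endothelial protein CD31, so other brain cells came along with the vessels. Both genotypes carry a human NOTCH3 transgene beside the mouse Notch3 gene, with the CADASIL change in R182C-TgN3 and the normal human sequence in WT-TgN3. The 6 R182C-TgN3 mice were numbered 1, 2 and 3 at 9 months (female, male, female) and 4, 5 and 6 at 6 months (male, female, female). The 5 WT-TgN3 mice were numbered 1, 2 and 3 at 6 months (female, male, female) and 4 and 5 at 9 months (male, female). The label dates gave 4 batches: batch 1 held R182C-TgN3 1 and 2 and WT-TgN3 4 and 5, batch 2 held R182C-TgN3 3, batch 3 held R182C-TgN3 4 and 5 and WT-TgN3 1 and 2, and batch 4 held R182C-TgN3 6 and WT-TgN3 3. Each batch held a single age, so age and batch cannot be told apart.

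The choroid plexus hangs in the brain ventricles and makes most of the cerebrospinal fluid. Its epithelium moves ions and water from fenestrated vessels into the ventricle, closes the blood-to-fluid border with tight junctions, and loads the fluid with carrier proteins, vitamins and growth factors. Transthyretin, the product of Ttr, carries thyroid hormone and retinol-binding protein and is the best known secretion of these cells.

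The 11 libraries held 17550806 (R182C-TgN3 5) to 64215050 UMIs (R182C-TgN3 1). The choroid plexus cells were few and uneven in size. They held 733 to 117787 UMIs each, with a median of 5535 UMIs and 1827 genes. Of the 179 cells, 94 had at least 5000 UMIs, with a median of 37312.5 UMIs and 5926 genes, and 85 had fewer, with a median of 1455 UMIs and 715 genes. The larger cells gave 3643922 of the 3800776 UMIs of all members. They also carried more of the markers that the rule did not use: a median of 11 of 11 such markers (Aqp1, Kcne2, Kcnj13, Otx2, Slc4a5, Sostdc1, Prlr, Htr2c, Cldn2, Calml4 and Ecrg4) had a UMI in the larger cells and 5 of 11 in the smaller ones. That count rises with the UMIs of a cell. Per UMI, with the cells of each class pooled, the 11 markers summed to 10879 CPM (UMIs per 1000000 UMIs) in the larger and 6006 CPM in the smaller cells, and 26 of the 85 smaller cells came from R182C-TgN3 4.

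The mitochondrial limit set how many of these cells were counted. With no such limit 647 cells passed the other conditions, and 440 of them held over 10% and up to 20% mitochondrial UMIs. Those 440 cells had a median of 36783 UMIs, 5798 genes, 22.2% Ttr and 11 of 11 outside markers, so they resembled the larger members in size and markers. The 10% limit kept 13.0% of the otherwise passing cells in WT-TgN3 1, the lowest share, and 44.9% in WT-TgN3 5, the highest. Results below are for the 10% limit unless the 20% limit is named.

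**Figure D1:**
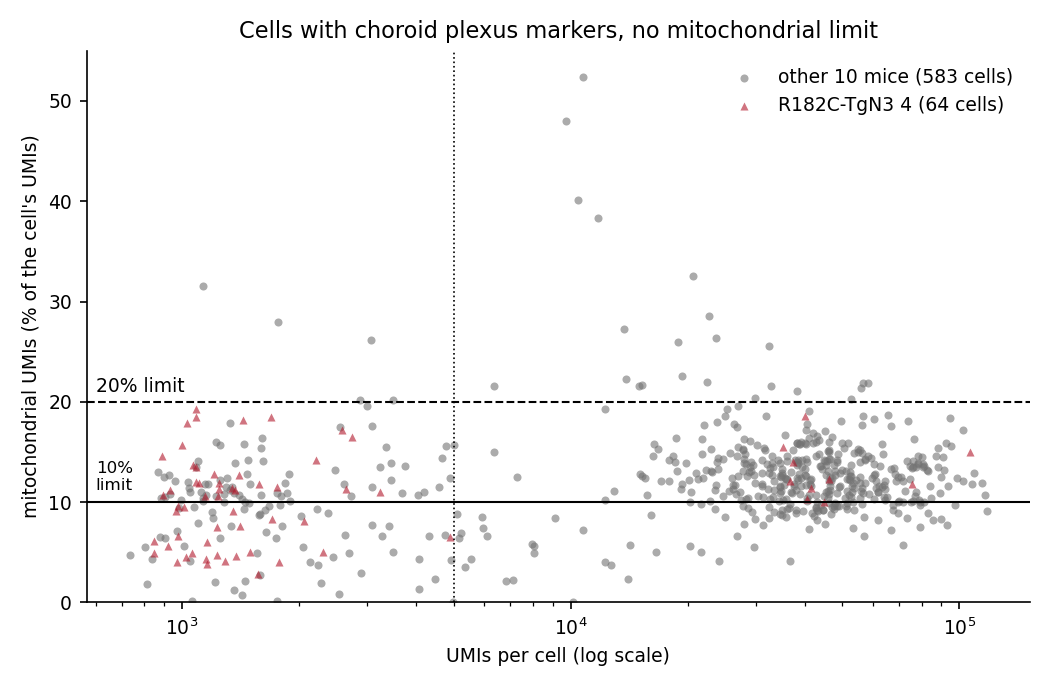
Mitochondrial share (percent of UMIs, vertical) against UMIs per cell (log scale, horizontal) for the 647 cells that passed the marker conditions, with triangles for R182C-TgN3 4. The solid and dashed lines mark the 10% and 20% limits and the dotted line 5000 UMIs; most large cells lie between the limits, and the R182C-TgN3 4 cells under 10% are all small.

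A pair of libraries from batch 3 stood apart. All 26 members of R182C-TgN3 4 had under 5000 UMIs, with a median of 1195 UMIs, and their median Ttr share was 9.08%, against 22.1% to 24.9% in the other R182C-TgN3 mice. In the same library 79 cells met every condition except the limit on Cldn5 and Flt1, and in WT-TgN3 1 there were 54, against 0 to 5 in the other libraries. Ttr in endothelial cells (at least 10 UMIs of Cldn5 and Flt1) was highest there too. It was 2361 CPM in R182C-TgN3 4 and 2037 CPM in WT-TgN3 1. On this measure, however, the pair did not stand apart. WT-TgN3 5 had 1843 CPM, R182C-TgN3 2 1453 CPM and R182C-TgN3 6 1268 CPM, and R182C-TgN3 5 was lowest, at 12.2 CPM. The endothelial cells had no limit on Ttr. Cells that failed the rule only by Cldn5 and Flt1 therefore count among them where they had at least 10 such UMIs. In WT-TgN3 1 the 54 cells had a median of 10.3% Ttr, and in R182C-TgN3 4 the 79 cells 8.37%. Ttr UMIs were present in 27.8% of endothelial cells in R182C-TgN3 4 and in 82.3% in WT-TgN3 4, where Ttr was 190 CPM. The part of cells with choroid plexus markers in these values was not tested.

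Near the thresholds the cells were small. The 8 members with 5% to 7% Ttr had a median of 1174 UMIs and 6.26% Ttr, and the 21 cells just outside, with 2% to 5%, a median of 1342 UMIs and 3.68% Ttr. Of those 21 cells, 14 came from R182C-TgN3 4. At the endothelial limit 26 members had 2 or 3 UMIs of Cldn5 and Flt1, and 43 cells with 4 to 6 such UMIs fell outside, 32 of them from R182C-TgN3 4. At the marker limit 10 members had 2 to 4 UMIs of Folr1, Clic6, Kl and Enpp2, and 2 cells with 0 or 1 fell outside. The members' 179 barcodes were 175 distinct sequences, of which 4 occurred in more than 1 library, and among all barcodes 966 of 65086 distinct ones did. No doublet caller was run: large members and members with UMIs of other cell types stayed in, and fits without them are given in the closing part.

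The share of choroid plexus cells among kept cells addressed whether the genotypes yielded these cells alike. It varied widely between mice within each genotype, and the genotypes overlapped. In R182C-TgN3 1 to 6 the shares were 0.0607%, 0.434%, 0.179%, 0.540%, 0.269% and 0.403%. In WT-TgN3 1 to 5 they were 0.0685%, 0.120%, 0.270%, 0.376% and 0.637%. The lowest share (6 of 9880 cells) had a 95% exact Clopper-Pearson interval of 0.0223% to 0.132%, and the highest (44 of 6912 cells) 0.463% to 0.854%, for counting error only.

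R182C-TgN3 mice had a mean share of 0.314% (SD 0.178, n = 6), and for WT-TgN3 mice it was 0.294% (SD 0.227, n = 5), a difference of 0.0199 percentage points, smaller than the spread between mice (2-sided exact permutation test, p = 0.868). Permuting genotype within batches gave an exact p of 0.875. Without R182C-TgN3 4 the difference was -0.0252 percentage points (exact p = 0.833). At the 20% limit the means were 1.02% (SD 0.457) in R182C-TgN3 and 1.08% (SD 0.529) in WT-TgN3, and the exact permutation test gave p = 0.829. By age the mean share was 0.337% (SD 0.225, n = 5) at 9 months and 0.278% (SD 0.175, n = 6) at 6 months (exact permutation test, p = 0.623), and at the 20% limit 1.13% and 0.979% (exact p = 0.608). No difference in share by genotype or age was detectable among these mice.

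**Figure D2:**
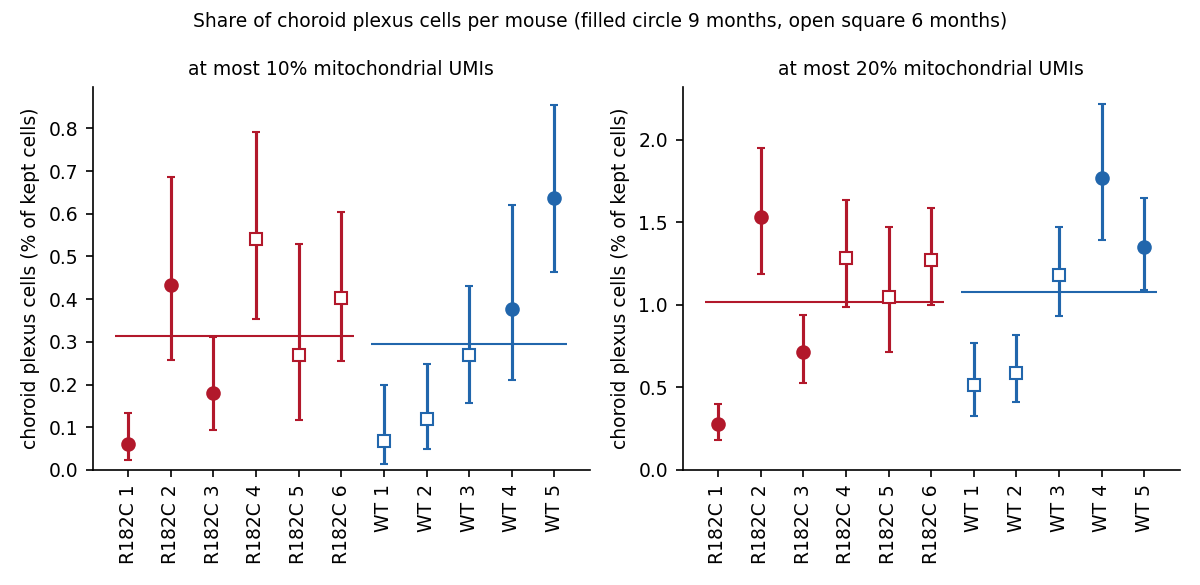
Choroid plexus cells as percent of kept cells in each mouse (vertical) at the 10% limit (left) and 20% limit (right), red for R182C-TgN3 and blue for WT-TgN3, with 95% exact binomial intervals and group means as lines. At the 10% limit the genotypes overlap, from 0.0607% to 0.540% against 0.0685% to 0.637%.

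For the levels of genes, UMIs were summed over the members of each mouse and expressed as CPM. The 7 mice with at least 10 members (R182C-TgN3 2, 3, 4 and 6, WT-TgN3 3, 4 and 5) gave means and SD. With the 20% limit all 11 mice had enough cells. Because the 3′ counts register the end of each transcript, CPM values were not scaled by gene length. Values in other cells of the same mice stand beside them without a test, because the members were chosen on expression. These were the endothelial cells above, microglia (at least 4 UMIs of a set of microglia markers) and 81 ependymal cells. The ependymal cells had at least 4 UMIs of 6 ependymal markers (Ccdc153, Tmem212, Dynlrb2, Rarres2, Foxj1 and Mia), from at least 3 of them. Ependymal values are means over the 3 mice with at least 10 such cells, R182C-TgN3 4 among them. The ependymal cells also carried RNA of the rule's genes, with 27080 CPM of Ttr and 30374 CPM for the 5 genes together, against 952 CPM in all other kept cells, and its part in the other ependymal values was not tested.

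Ttr alone took 21.2% of the members' UMIs (SD 4.99, n = 7), from 12.1% in R182C-TgN3 4 to 28.7% in R182C-TgN3 6. The 10 most abundant genes took 32.6% and the 100 most abundant 45.8%. Of 2734 genes above 50 CPM, 226 were at least 10 times and 25 at least 100 times as abundant as in all other kept cells. As a background for the lists below, 16779 genes (52.0% of all genes) had a UMI in members, and 3023 of those 16779 were higher than in the endothelial, microglial and ependymal cells alike, as were 913 of the 2734 genes above 50 CPM. The mice resembled each other: at the 20% limit the correlation of log2 CPM over 7700 genes between any pair of mice was 0.857 to 0.968, a description across genes, which are not independent replicates.

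**Figure D3:**
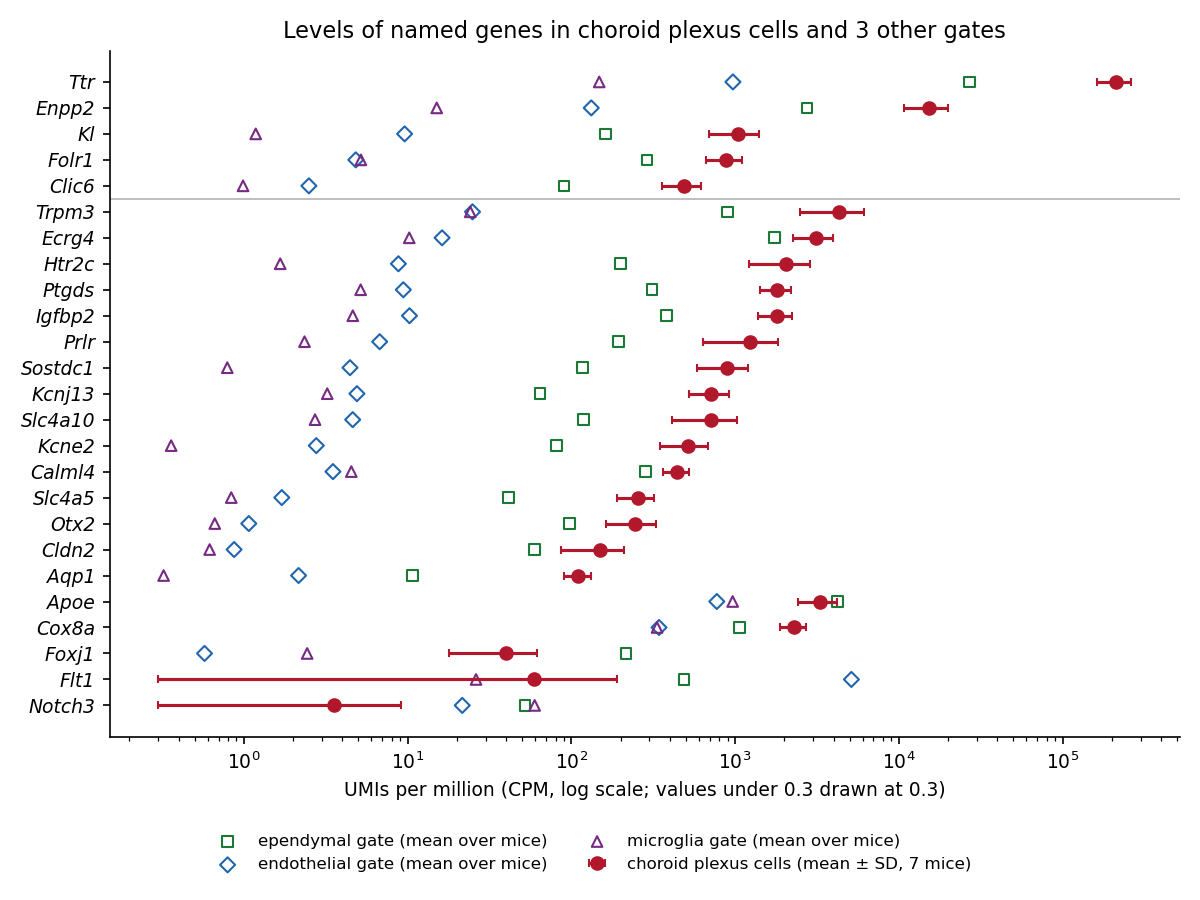
Levels of 25 named genes in CPM (log scale, horizontal) in choroid plexus cells (mean and SD, 7 mice) and in ependymal, endothelial and microglial cells of the same mice (means). The 5 genes above the grey line chose the cells; Trpm3 to Aqp1 are highest in choroid plexus cells, and Notch3 is lowest there, at 3.54 CPM.

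The genes of the rule are given as a description. Ttr reached 212188 CPM (SD 49919), against 827.5 CPM in all other kept cells, and at the 20% limit its level ran from 185680.0 CPM in WT-TgN3 3 through a median of 216484 CPM to 256847 CPM in R182C-TgN3 6. Enpp2, which encodes the secreted enzyme autotaxin that makes lysophosphatidic acid, reached 15379 CPM (SD 4682). Kl, the co-receptor for the hormone FGF23 that is also shed into the fluid, reached 1043 CPM (SD 348). Folr1, the receptor that carries folate across the epithelium, reached 884.5 CPM (SD 223), and the chloride channel gene Clic6 487 CPM (SD 131). The endothelial gene Cldn5, whose UMIs the rule limited, averaged 119 CPM at the 10% limit, with 761 CPM in R182C-TgN3 4 and at most 23.4 CPM in the other 6 mice, and 16.3 CPM at the 20% limit.

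The ion and water transport list includes Clic6 of the rule. All 26 listed genes had UMIs in members, 17 of 26 were higher than in the endothelial, microglial and ependymal cells alike, and their sum was 12089 CPM (SD 3179), against 3870 CPM in ependymal and 815 CPM in endothelial cells. R182C-TgN3 4 had the lowest sum, at 7369 CPM. The cation channel gene Trpm3 led with 4321 CPM (SD 1833), against 896 CPM in ependymal cells. Atp1b1, the beta subunit of the sodium pump on the ventricular face, reached 1298 CPM (SD 464), and Fxyd1, which regulates that pump, 861 CPM (SD 166). Slc4a10, a sodium-bicarbonate transporter of the blood-facing side, reached 717 CPM (SD 304), and Slc4a5, its counterpart on the ventricular side, 255 CPM (SD 65.0). The potassium channel genes were Kcnj13, at 716 CPM (SD 195), and Kcne2, at 514 CPM (SD 169). The water channel gene Aqp1 was lower than these, at 110.5 CPM (SD 20.7), yet only 10.7 CPM in ependymal and 0.323 CPM in microglial cells. Across the 11 mice at the 20% limit Aqp1 ran from 95.4 CPM through a median of 118 CPM to 176 CPM in R182C-TgN3 3.

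Secreted and carrier proteins were a list that includes Ttr and Enpp2 of the rule. Of 30 listed genes, 28 had UMIs and 17 were higher than in the 3 other cell types; Rbp4 and Spp1 had none. Apoe, the lipid carrier, reached 3305 CPM (SD 869), below its 4209.8 CPM in ependymal cells. Ecrg4, the precursor of a secreted peptide called augurin, reached 3109 CPM (SD 851), against 1740.1 CPM in ependymal cells, and Ptgds, a prostaglandin synthase that also carries lipids in the fluid, 1800.5 CPM (SD 381). Igfbp2, which binds insulin-like growth factors, reached 1799.7 CPM (SD 414), against 382 CPM in ependymal cells. Sostdc1, a secreted inhibitor of BMP and Wnt signalling, reached 895 CPM (SD 311), against 3.70 CPM in all other kept cells.

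Transport of folate, vitamins and organic solutes rested on 29 of 30 listed genes with UMIs, 14 of them higher than in the 3 other cell types, with a sum of 4078 CPM (SD 468), against 5685 CPM in endothelial, 2149 CPM in ependymal and 1193 CPM in microglial cells. Folr1 of the rule counts in this list. Besides Folr1, the leading genes were Slc22a17, a receptor for iron-binding lipocalin, at 774 CPM (SD 152), and the thyroid hormone transporter Slco1c1, at 461 CPM (SD 94.3). Slco1c1 was not limited to this epithelium, at 1133 CPM in endothelial cells. In the group of iron, copper and metallothionein genes 22 of 23 had UMIs, led by the ferritin gene Fth1, at 2536 CPM (SD 339.9), and the brain metallothionein Mt3, at 1168 CPM (SD 350.2). The iron hormone gene Hamp had no UMI in members.

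Border genes were present at moderate levels. The list of tight junction genes also held cadherins, Epcam and keratins. Of its 23 genes 22 had UMIs, all but Cldn11, and the sum of 1097 CPM (SD 257) stood beside 6324 CPM in endothelial cells. Cldn5 is in this list at 4368 CPM in endothelial cells, and since the rule limits it in members and the choice of endothelial cells asks for it, that difference is largely fixed by the selection. Cldn2, the claudin that lets sodium and water pass in leaky epithelia, reached 149 CPM (SD 61.7), against 0.871 CPM in endothelial cells. The most abundant gene of the list was the keratin gene Krt18, at 255 CPM (SD 45.8), against 1.68 CPM in endothelial cells.

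Among receptors, Htr2c, the serotonin receptor for which this epithelium is a classical site, was at 2047 CPM (SD 831), against 199 CPM in ependymal and 8.78 CPM in endothelial cells. Prlr, the prolactin receptor, reached 1228 CPM (SD 591), and Npr3, which clears natriuretic peptides, 128 CPM (SD 76.5). Of 32 listed receptor genes 25 had UMIs and 6 were higher than in the 3 other cell types. Among the 18 genes of Kl and FGF signalling, 11 had UMIs and 7 had none: Klb, Fgfr4, Fgf21, Fgf23, Cyp24a1, Cyp27b1 and Vdr. The FGF receptor gene Fgfr2 was at 153 CPM (SD 39.1).

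The homeobox gene Otx2, needed for choroid plexus formation and upkeep, was at 246 CPM (SD 83.1), against 97.8 CPM in ependymal and 1.07 CPM in endothelial cells. Otx2 at the 20% limit ran from 189 CPM in R182C-TgN3 4 through a median of 254 CPM to 297 CPM in WT-TgN3 5, an even level over mice. Msx1, a homeobox gene of the dorsal midline, was at 199.9 CPM (SD 78.2), close to its 172 CPM in ependymal cells. Of 21 listed transcription factors 17 had UMIs, and Mcidas, Hes5, Tfap2a and Onecut2 had none. Genes that mark position along the brain were near 0 on the whole: 8 of 14 hindbrain genes had UMIs, with a sum of 16.4 CPM (SD 17.1), and 6 of 9 telencephalic genes, with a sum of 57.9 CPM (SD 26.5). The most abundant were Six3, at 29.2 CPM, of the telencephalic list and Meis1, at 13.9 CPM, of the hindbrain list.

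Cilia genes were lower in the members than in ependymal cells. The markers that chose the ependymal cells include the cilia genes Foxj1, Ccdc153 and Tmem212, which partly fixes that difference. The 24 genes of motile cilia summed to 1100.3 CPM (SD 316) in members and to 6997 CPM in ependymal cells, and Ccdc153, Tmem212 and Sntn had no UMI in members. Foxj1, the switch for motile cilia, was at 39.8 CPM (SD 22.0), against 216 CPM in ependymal cells. Genes of respiration went the other way. All 75 nuclear genes of oxidative phosphorylation had UMIs, 74 of 75 were higher than in the 3 other cell types, and their sum was 40006 CPM (SD 5091), against 19359 CPM in ependymal, 11764 CPM in endothelial and 7194 CPM in microglial cells. Cox8a, a subunit of cytochrome c oxidase, led this list at 2297 CPM (SD 416), and its relative Cox8b, known from muscle and brown fat, was at 254 CPM (SD 94.3), against 0.948 CPM in all other kept cells.

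Stress genes that tissue dissociation induces were low. Their 27 genes summed to 6924 CPM (SD 2326) in members and to 22327 CPM in endothelial and 34000.5 CPM in microglial cells, and 0 of 27 were highest in members. Chaperones of the endoplasmic reticulum were led by Hsp90b1, at 1305 CPM (SD 416), and Hspa5, at 1181 CPM (SD 276). The 29 interferon response genes found in the annotation summed to 1592 CPM (SD 847), led by Ifi27, at 716 CPM (SD 109). The inflammation list summed to 349 CPM, and Il1b, Il6, Ccl5 and Serpina3n had no UMI in members.

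RNA of Notch pathway genes, to which the transgene belongs, was lower in sum than in endothelial cells. Human NOTCH3 was at 5.00 CPM (SD 10.2) and mouse Notch3 at 3.54 CPM (SD 5.56), against 18.8 and 50.6 CPM in all other kept cells. These means rest on 3 UMIs of NOTCH3, of which 1 among the 36778 member UMIs of R182C-TgN3 4 gave 27.2 CPM and 2 in R182C-TgN3 3 gave 7.81 CPM, and on 12 UMIs of Notch3. NOTCH3 at the 20% limit was 0 in 6 of the 11 mice, with a highest level of 1.72 CPM in R182C-TgN3 4. Notch2, a receptor of the same family, was the higher receptor at 146 CPM (SD 49.3), and Maml2, a coactivator of the pathway, was at 220.4 CPM (SD 96.7). The 17 listed genes summed to 559.8 CPM (SD 156), against 1459 CPM in endothelial cells, and Dll1 had no UMI.

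RNA of other cell types was present to different degrees in the members. Of 12 microglia and macrophage genes 11 had UMIs (Mrc1 none), with a sum of 890.4 CPM (SD 685). Of 10 mural genes 9 had UMIs (Abcc9 none), with Acta2 most abundant, at 237 CPM. Their sums were 1526 CPM in R182C-TgN3 3 and 2937 CPM in R182C-TgN3 4, above the 22.9 to 80.0 CPM of the other 5 mice. A single member of R182C-TgN3 3 held 224 UMIs of the mural markers Acta2, Tagln, Rgs5, Kcnj8 and Vtn, and the highest member of R182C-TgN3 4 held 15. The 10 endothelial genes summed to 4133 CPM, mostly Bsg, at 3283 CPM, which also serves lactate transport in this epithelium. Of 8 fibroblast genes 4 had UMIs (Lum, Col1a1, Col3a1 and Slc47a1 none), with a sum of 93.0 CPM, mostly Col1a2. Ependymal genes summed to 467 CPM, mostly Mia, and 6 of 8 had UMIs. Mean sums of the astrocyte, neuron, oligodendrocyte, erythroid and blood cell lists over the 7 mice were at most 86.3 CPM (neuron). In single mice the neuron list reached 272 CPM in R182C-TgN3 2 and the astrocyte list 202 CPM in WT-TgN3 4.

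The genotype contrast asked which genes of these cells differed between R182C-TgN3 (4 mice) and WT-TgN3 (3 mice). At the 10% limit a set of genes was higher in R182C-TgN3, nearly all of them genes more abundant in microglia, and none of the choroid plexus functions described above had a called gene. The number of calls changed with the libraries and cells included, and at the 20% limit, with all 11 mice, edgeR called none. By edgeR with Benjamini-Hochberg adjustment, 19 of 4074 genes tested passed an adjusted p of 0.05 (0.466%), and all 19 were higher in R182C-TgN3. DESeq2 called 24 genes. Of the 19 genes, 17 had a higher CPM in microglia than in members, against 1742 of all 4074 genes tested, and the others were Il31ra and Defb11.

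The microglial genes among the calls included receptors, chemokines and complement genes. P2ry12, the ADP receptor of resting microglia, was 119, 121, 136 and 37.9 CPM in R182C-TgN3 2, 3, 4 and 6 and 32.7, 0 and 10.5 CPM in WT-TgN3 3, 4 and 5 (log2 fold change 2.96, SE 0.54, edgeR adjusted p = 0.0292; higher in 4 of 4 mice). C1qb, a chain of complement C1q, was 68.8, 156, 218 and 112 CPM in the same R182C-TgN3 mice and 43.6, 14.8 and 35.1 CPM in the WT-TgN3 mice (log2 fold change 2.02, SE 0.37, edgeR adjusted p = 0.0292; higher in 4 of 4 mice). In both genes all 4 R182C-TgN3 mice were above all 3 WT-TgN3 mice, with R182C-TgN3 6 the lowest of its group for P2ry12. R182C-TgN3 4 was highest for both genes, but it held 36778 member UMIs in all, so these 2 values stand for few UMIs. Tmsb4x, which encodes an actin-binding peptide of microglia and endothelium, was 241, 504, 1441 and 220.3 CPM against 65.5, 122 and 83.7 CPM (log2 fold change 2.52, SE 0.49, edgeR adjusted p = 0.0292; higher in 4 of 4 mice). R182C-TgN3 4 was far above the other mice for Tmsb4x.

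Defb11 and Il31ra followed other patterns. Defb11 lies on chromosome 8 at 21905376 to 21906412 (GRCm38, protein coding) and was nearly confined to these cells, at 84.5 CPM (SD 60.7) against 0.337 CPM in all other kept cells. It was 164, 168, 27.2 and 102 CPM in R182C-TgN3 2, 3, 4 and 6 and 36.4, 50.5 and 43.3 CPM in WT-TgN3 3, 4 and 5 (log2 fold change 1.68, SE 0.34, edgeR adjusted p = 0.0292; higher in 3 of 4 mice). R182C-TgN3 4 was the lowest of the 7 mice, so the groups overlapped. Its 27.2 CPM stands for 1 UMI among 36778 member UMIs, so its rank rests on that UMI. Defb11 at the 20% limit was 63.9, 115, 168, 132, 65.8 and 117 CPM in R182C-TgN3 1 to 6 and 96.0, 95.7, 55.2, 141 and 58.0 CPM in WT-TgN3 1 to 5. With all 11 mice the ranges overlapped and the log2 fold change was 0.38, short of an unadjusted p of 0.05 by edgeR. Il31ra was 30.6, 78.1, 381 and 120.0 CPM against 32.7, 17.8 and 14.0 CPM (log2 fold change 2.58, SE 0.54, edgeR adjusted p = 0.0376). R182C-TgN3 2 fell below WT-TgN3 3 for Il31ra, and its levels by age are given further on.

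Cmss1, a gene linked to ribosome assembly, showed the largest absolute levels among the calls. It was 3014, 2826, 14601 and 2481 CPM in R182C-TgN3 2, 3, 4 and 6 and 753, 1689.8 and 485 CPM in WT-TgN3 3, 4 and 5 (log2 fold change 2.54, SE 0.56, edgeR adjusted p = 0.0465; higher in 4 of 4 mice). Over the 7 mice Cmss1 averaged 3693 CPM, below its 6999 CPM in endothelial cells and 4687 CPM in microglia. R182C-TgN3 4 alone was above both of these values. Other calls by log2 fold change were Entpd1 3.80, Mir142hg 3.69, Dock2 3.39, Elmo1 2.67, Ccl4 2.56, Cx3cr1 2.38, Ccl3 2.34, Slc8a1 2.27, Lrmda 2.15, C1qa 2.04, Ctss 1.99 and Tanc2 1.74.

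The microglia list moved with these calls. Of its 8 genes tested 6 were called, and the median of their log2 fold changes was 2.03, against -0.01 over all genes tested. Its summed level was 868, 1694, 1958 and 763 CPM in R182C-TgN3 2, 3, 4 and 6 and 436, 238 and 276 CPM in WT-TgN3 3, 4 and 5. All 4 R182C-TgN3 mice were above the WT-TgN3 mice. In single cells this RNA was concentrated: of 1354 UMIs of the 5 microglia markers in all members, 9 of 179 cells with over 30 such UMIs each held 840. The highest single cell held 85.2% of these UMIs in R182C-TgN3 2, 65.9% in R182C-TgN3 3, 62.0% in R182C-TgN3 6, 70.7% in WT-TgN3 3, 17.6% in WT-TgN3 4 and 25.4% in WT-TgN3 5. Both genotypes held cells over 30 such UMIs, 5 of the 9 in R182C-TgN3 libraries and the other 4 in WT-TgN3 libraries. In R182C-TgN3 4 no cell held more than 5, but its members were small and held 36778 UMIs in all.

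Without those 9 cells, a condition chosen after seeing the data, edgeR called 0 of 3179 genes, with 230 at an unadjusted p under 0.05 and a lowest adjusted p of 0.0536. Only 5 of the 19 genes were still abundant enough to be tested. Il31ra (log2 fold change 2.74), Cmss1 (2.72) and Defb11 (1.78) each had an adjusted p of 0.0536, and Tmsb4x (2.23) 0.572. The log2 fold changes of Il31ra, Cmss1 and Defb11 were thus as large without those cells.

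The number of calls varied when a mouse was left out. Without R182C-TgN3 3 edgeR called 0 genes (138 at an unadjusted p under 0.05), without WT-TgN3 5 it called 2, without WT-TgN3 3 it called 3, without WT-TgN3 4 it called 10 and without R182C-TgN3 6 it called 46. Without R182C-TgN3 2 or R182C-TgN3 4 it called 16. With batch as a covariate it called 0 (156 at an unadjusted p under 0.05). The part of single cells, libraries and batch in the 19 calls was not tested.

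With 6 against 5 mice at the 20% limit, edgeR called 0 of 8861 genes by genotype (185 at an unadjusted p under 0.05; lowest adjusted p 0.525). DESeq2 called 1 gene, Mir142hg, with an edgeR log2 fold change of 2.42. Of the 19 genes 18 were tested there. The 20% set contains the cells of the 10% set, so the values of these genes in both sets are not independent: the median log2 fold change of the 18 was 0.98, and that of the 19 at the 10% limit 2.38. The summed microglia list at the 20% limit was 292, 172, 513, 245, 559 and 341 CPM in R182C-TgN3 1 to 6 and 446, 168, 259.7, 166 and 162 CPM in WT-TgN3 1 to 5. The genotypes overlapped, with R182C-TgN3 5 and 3 highest and WT-TgN3 5 lowest. The mural list had 0 of 4 tested genes called there, with a median log2 fold change of 1.46, against 0.96 for 8 microglia genes. Its sums were 304 and 266 CPM in R182C-TgN3 3 and 4 and 38.9 to 148.6 CPM in the other mice. The member of R182C-TgN3 3 with 224 mural marker UMIs was still among these cells, and its part in these values was not tested.

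For the choroid plexus functions the genotype contrast gave no call in either set. At the 10% limit 0 of 20 tested ion and water transport genes were called (median log2 fold change -0.26), and at the 20% limit 0 of 24 (median 0.01). The medians at the 20% limit were 0.04 for 25 secreted proteins, -0.01 for 24 solute transport genes, 0.04 for 17 tight junction genes, -0.03 for 14 transcription factors, -0.06 for 15 receptors and 0.05 for 75 oxidative phosphorylation genes, against 0.00 over all genes tested. Stress genes had medians of 0.38 (21 genes) and 0.16 (25 genes) at the 10% and 20% limits. Notch pathway genes had medians of -0.07 (4 genes) and -0.12 (8 genes), with 0 called in both.

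The age contrast compared 9 with 6 months with genotype in the model. Its question was whether the cells' RNA differed between the labelled ages, which here are also batches. With 7 mice at the 10% limit no gene passed, whereas with 11 mice at the 20% limit 5 genes were lower at 9 months. The 4 genes described below had little or no overlap between ages and were also lower at 9 months in endothelial and microglial cells of the same mice.

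At the 10% limit edgeR called 0 of 4074 genes by age (92 at an unadjusted p under 0.05), and DESeq2 called 0 (46 at an unadjusted p under 0.05). Il31ra (log2 fold change -1.55, edgeR adjusted p = 0.999), Klf6 (1.59) and Prr32 (1.06) were among the lowest unadjusted p and missed the threshold. The 20% limit gave 5 edgeR calls of 8861 genes (0.0564%), with 278 at an unadjusted p under 0.05, and DESeq2 called 7.

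Il31ra lies on chromosome 13 at 112519898 to 112594360 (GRCm38). At 9 months it was 25.9, 40.5 and 45.6 CPM in R182C-TgN3 1, 2 and 3 and 23.3 and 18.3 CPM in WT-TgN3 4 and 5. At 6 months it was 139, 122 and 106 CPM in R182C-TgN3 4, 5 and 6 and 60.0, 81.0 and 41.7 CPM in WT-TgN3 1, 2 and 3. The ages overlapped only through R182C-TgN3 3 and WT-TgN3 3, and at both ages the R182C-TgN3 mice were all above the WT-TgN3 mice. The log2 fold change was -1.60 (SE 0.19, edgeR adjusted p = 0.000387). With age as a covariate the genotype log2 fold change of Il31ra at the 20% limit was 0.98 (SE 0.19, edgeR adjusted p = 0.293).

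A pair of histone genes behaved alike. Hist2h2aa1, an H2A histone gene on chromosome 3, was 2.78, 5.84 and 15.4 CPM in R182C-TgN3 1, 2 and 3 and 2.53 and 7.29 CPM in WT-TgN3 4 and 5, and at 6 months 51.5, 29.6 and 60.8 CPM in R182C-TgN3 4, 5 and 6 and 20.6, 21.6 and 25.2 CPM in WT-TgN3 1, 2 and 3 (log2 fold change -2.46, SE 0.30, edgeR adjusted p = 0.000387). Every mouse at 9 months was below every mouse at 6 months. Hist1h2ap, an H2A histone gene on chromosome 13, ran from 0 through a median of 4.02 to 6.71 CPM at 9 months and from 7.98 through 14.6 to 36.3 CPM at 6 months (log2 fold change -2.40, SE 0.38, edgeR adjusted p = 0.00709). The ages did not overlap for Hist1h2ap either.

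Gstp1, a glutathione transferase gene on chromosome 19, ran from 1.85 through a median of 4.70 to 6.57 CPM at 9 months and from 12.0 through 20.2 to 32.9 CPM at 6 months (log2 fold change -2.03, SE 0.27, edgeR adjusted p = 0.000775). For this gene too all 5 mice at 9 months were below all 6 mice at 6 months. At 6 months the R182C-TgN3 mice had the higher levels of Gstp1 and Hist2h2aa1, and at 9 months the genotypes overlapped for both genes.

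The calls held in part when mice were left out. Il31ra, Hist2h2aa1 and Gstp1 were called in each of the 11 fits that left out 1 mouse, and Hist1h2ap in 10. The number of calls was 4 without R182C-TgN3 4 and 5 without WT-TgN3 1, the libraries that stood apart, and 9 without R182C-TgN3 3. Without the cells over 30 microglia UMIs edgeR called 5 genes (0.0577% of 8662 genes), these 4 among them.

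In other cells of the same mice these genes showed the same direction, given as values without a test. Il31ra was 216 CPM (SD 81.4) at 6 months and 65.8 CPM (SD 30.3) at 9 months in endothelial cells, and 112 CPM (SD 53.0) and 29.8 CPM (SD 17.7) in microglia. Gstp1 was 25.9 and 8.18 CPM in endothelial cells and 12.8 and 4.42 CPM in microglia. Hist2h2aa1 was 9.52 and 2.68 CPM in endothelial cells, and Hist1h2ap 6.02 and 0.633 CPM. The decline at 9 months was therefore not limited to choroid plexus cells, and whether age or batch went with it cannot be told apart.

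**Figure D4:**
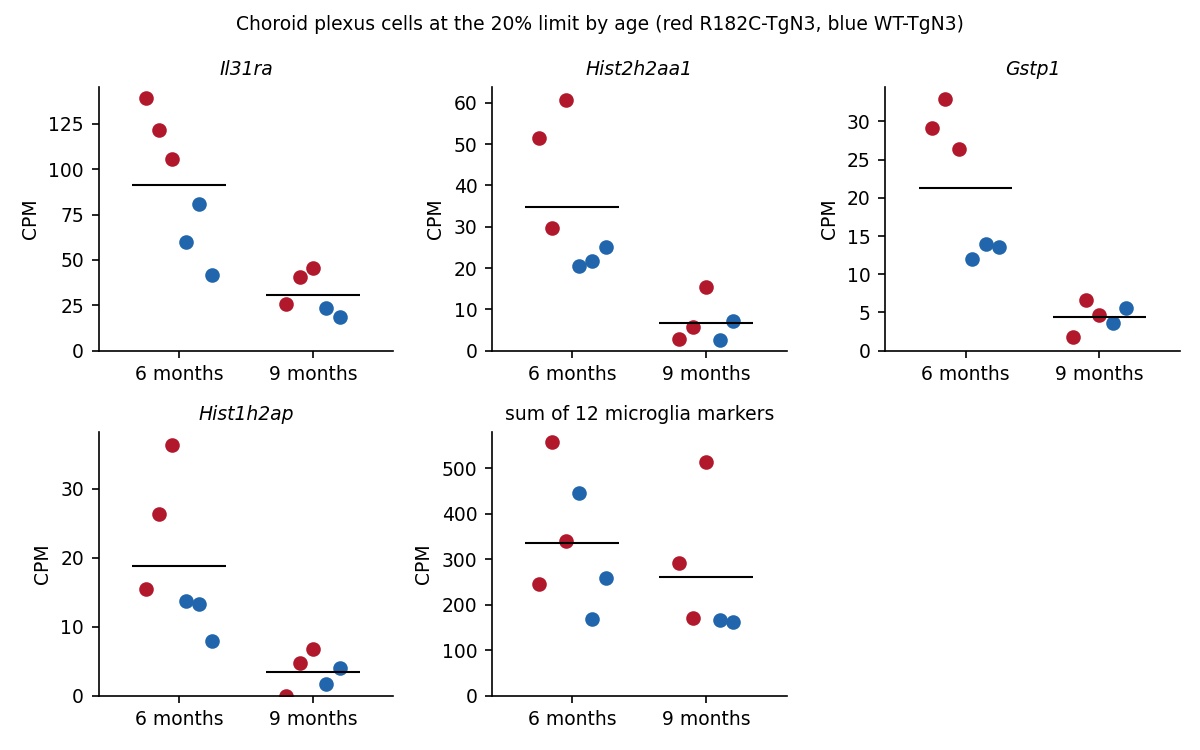
Levels in CPM (vertical, each point a mouse, lines for means) of 4 genes called by age at the 20% limit and of the summed microglia markers, at 6 and 9 months, red for R182C-TgN3 and blue for WT-TgN3. Hist2h2aa1, Gstp1 and Hist1h2ap separate the ages in all 11 mice, and Il31ra overlaps only between 41.7 and 45.6 CPM.

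No list of choroid plexus functions had a gene called by age at the 20% limit. The median log2 fold change was -0.01 for 24 ion and water transport genes, 0.07 for 25 secreted proteins, 0.12 for 14 transcription factors and 0.08 for 75 oxidative phosphorylation genes, against -0.00 over all genes tested. The 25 stress genes had a median of 0.60, with 0 called. Their summed level was highest in WT-TgN3 5, at 7691 CPM, and R182C-TgN3 2, at 6751 CPM, both of 9 months, and the other 9 mice lay between 3297 and 4996 CPM.

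The sex contrast, with genotype in the model, checked the labels and compared 7 females with 4 males at the 20% limit. The sex genes followed the labels in every mouse, and 18 of the 24 genes called lay outside the sex chromosomes, many of them microglial. Xist, the RNA of the inactive X chromosome, was 411 to 886 CPM in females and 0 to 0.365 CPM in males, and the Y-linked Ddx3y was 69.1 to 119 CPM in males and 0 to 13.2 CPM in females. At the 10% limit edgeR called 3 of 4074 genes (0.0736%), namely Xist, higher in females, and Ddx3y and AY036118, lower. Without R182C-TgN3 4 it called 1 gene. Leaving out R182C-TgN3 2 instead gave 11 calls, 1 higher and 10 lower in females. Dropping the filter on low counts gave 60 calls, 5 higher and 55 lower in females. With the 20% limit it called 24 of 8861 genes (0.271%), 23 of them higher in females, and 18 of the 24 were more abundant in microglia than in members, against 4731 of 8860 tested gene names.

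Cpxm2, a secreted protein of the carboxypeptidase family, was the only gene outside the sex chromosomes called in each of the 11 fits that left out 1 mouse and also without the cells over 30 microglia UMIs. It was 27.8, 43.0, 9.87 and 22.2 CPM in the R182C-TgN3 females 1, 3, 5 and 6 and 20.6, 37.4 and 21.1 CPM in the WT-TgN3 females 1, 3 and 5. In males it was 5.11 and 3.43 CPM in R182C-TgN3 2 and 4 and 9.78 and 6.75 CPM in WT-TgN3 2 and 4. All 7 females were above all 4 males, R182C-TgN3 5 by little (log2 fold change 2.00, SE 0.30, edgeR adjusted p = 0.00186). Cpxm2 lies on chromosome 7 and was 5.94 CPM in microglia.

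Socs2, an inhibitor of cytokine and growth hormone signalling, ran from 11.1 through a median of 32.4 to 49.3 CPM in females and from 6.21 to 11.9 CPM in males (log2 fold change 1.75, SE 0.31, edgeR adjusted p = 0.0105). A2m, a secreted protease inhibitor, ran from 129.5 through a median of 226 to 534 CPM in females and from 65.7 to 132 CPM in males (log2 fold change 1.43, SE 0.27, edgeR adjusted p = 0.0130). In both genes the lowest female and the highest male overlapped slightly. Ccnd2, a cyclin, ran from 119 to 214 CPM in females and from 82.5 to 114 CPM in males (log2 fold change 0.81, SE 0.16, edgeR adjusted p = 0.0309), without overlap. Prlr missed the threshold, at 1436 to 2799 CPM in females and 1158 to 1474 CPM in males (log2 fold change 0.63, SE 0.18, edgeR adjusted p = 0.457).

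The other calls by sex included X-linked genes and microglial genes. The X-linked genes Kdm6a, Eif2s3x and Ddx3x had log2 fold changes of 0.90, 0.77 and 0.71. C1qa, C1qb and C1qc, complement genes of microglia, were called in all 11 fits that left out 1 mouse. The microglia list had 4 of 8 tested genes called, with a median of 1.50 against -0.00 over all genes tested. Without the cells over 30 microglia UMIs edgeR called 14 of 8662 genes (0.162%), 12 of them shared with the 24 and 8 of them more abundant in microglia than in members, against 4572 of 8661 tested gene names, and C1qa fell from 2.28 to 0.57 and C1qb from 1.96 to 0.69 with adjusted p of 1.00. Cpxm2, Socs2, A2m, Ccnd2, Cpe and Fbxl7 were among the calls in both sets. Of these only Cpxm2 kept its call in each fit that left out 1 mouse: of 11 such fits Socs2 was called in 9, A2m in 9, Cpe in 5, Ccnd2 in 4 and Fbxl7 in 4.

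The interaction of genotype and age asked whether the genotype difference changed with age. At the 10% limit edgeR called 0 of 4074 genes (249 at an unadjusted p under 0.05) and DESeq2 0 (49 at an unadjusted p under 0.05). The lowest unadjusted p belonged to Tmcc3 (log2 difference 4.32) and Cd86 (6.53), each with an adjusted p of 0.111. At the 20% limit edgeR called 0 of 8861 genes (469 at an unadjusted p under 0.05) and DESeq2 0 (193 at an unadjusted p under 0.05). Without R182C-TgN3 4 the 10% limit gave 8 calls, and without WT-TgN3 4 or WT-TgN3 5 it gave 1.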

How the data were processed

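Single-cell 3′ RNA of 11 mice (6 R182C-TgN3, 5 WT-TgN3) was read from the deposited matrices of raw UMI count per gene and barcode, which the authors made with Cell Ranger 7.0.0 on mm10 with human NOTCH3 added. The members and gene lists were chosen with earlier results of these data known. Cells under 500 genes or over 10% mitochondrial UMIs were left out. UMIs were summed per mouse over member cells, for mice with at least 10. Contrasts left out ribosomal, mitochondrial, Gm and Rik genes and used edgeR 4.0.16 (filterByExpr, TMM, quasi-likelihood, Benjamini-Hochberg 0.05), with DESeq2 1.42.0 as an alternative; limma 3.58.1 was loaded, under R 4.3.3. Shares used 2-sided exact permutation over the 462 splits of the mice (Python 3.11.15, scipy 1.17.1, numpy 2.4.6, pandas 2.3.3). Alternatives changed the gate, cell minimum, filter, normalization, covariates and mice. The fits were also tested on simulated data. Positions are from GENCODE vM21 (GRCm38). Named genes were the rule's genes, Cldn5, Flt1, NOTCH3 and Notch3, the 15 highest by CPM and by ratio to other cells, the 4 highest of each of 32 lists, list genes called by genotype, and in each contrast the 10 largest called changes each way or, where fewer than 5 passed, the 5 lowest p each way. Some genes that this rule picks are not reported here. Genes named as having no UMI, the markers outside the rule and the genes called at the 20% limit were chosen after their values were seen.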

Additional observations from a re-analysis of the deposited data

Results flagged for a closer look

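In groups of mice of the same genotype, 14 of 102 groups tested held a mouse far from the others (its gap to the nearest mouse was a large part of the group's range); chance flags about 1 in 20 groups, and these groups share mice and so are not independent. No cause was tested.

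R182C-TgN3 4 had a median Ttr share of 9.08% of UMIs per member, against 22.1% to 24.9% in the other R182C-TgN3 mice. It also had 79 cells that met every condition except the limit on Cldn5 and Flt1, and WT-TgN3 1 had 54, against at most 5 and 4 in the other mice of each genotype.

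At the 20% limit Ttr was 256847 CPM in R182C-TgN3 6, against 209668 to 226291 CPM in the other R182C-TgN3 mice. Aqp1 was 176 CPM in R182C-TgN3 3, against 95.4 to 124 CPM. Prlr was 2799 CPM in WT-TgN3 3, against 1302 to 1679 CPM in the other WT-TgN3 mice.

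The remaining values belong to genes that are more abundant in microglia, at the 20% limit. P2ry12 was 24.8 CPM in R182C-TgN3 3, against 12.8 to 16.4 CPM. In R182C-TgN3 5 Tanc2 was 118 CPM, Lrmda 85.5 CPM and Slc8a1 55.9 CPM. In WT-TgN3 1 Mir142hg was 8.57 CPM, Tanc2 97.7 CPM, Lrmda 53.2 CPM and Entpd1 17.1 CPM. The single member highest in microglia marker UMIs held 33.8% of them in R182C-TgN3 3, 71.4% in R182C-TgN3 5 and 50.6% in WT-TgN3 1, and its part in these values was not tested.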

How the results depend on the processing

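The difference in share by genotype (0.0199 percentage points) stayed within the spread between mice under every alternative run and changed sign under several: -0.0145 with Ttr at 10% or more, -0.0601 with no Cldn5 or Flt1 UMI, -0.0742 with at least 1000 genes, -0.0597 at the 20% limit, and, in alternatives chosen after seeing the data, -0.0878 with at least 5000 UMIs and -0.0833 with no mitochondrial limit. Leaving out 1 mouse at a time gave -0.0365 (without WT-TgN3 1) to 0.106. It was also negative without R182C-TgN3 2 (-0.00403), R182C-TgN3 4 (-0.0252) and WT-TgN3 2 (-0.0235). The difference by age (0.0590) was -0.394 with no limit on Cldn5 and Flt1 and -0.0158 (without WT-TgN3 5) to 0.128 when a mouse was left out. In all these cases the cause was not tested.

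The 19 genes called by genotype became 162 without a filter on low counts. They became 0 with no Cldn5 or Flt1 UMI (2 R182C-TgN3 against 3 WT-TgN3 mice), no limit on Cldn5 and Flt1, at least 1000 genes (3 against 2 mice), possible doublets left out (3 against 2 mice, 238 genes tested), at least 1 cell per mouse, batch as covariate, and the 20% limit, and, in alternatives chosen after seeing the data, with no mitochondrial limit or no member over 30 microglia UMIs. A fit with at least 5000 UMIs also called 0, but held only 1 R182C-TgN3 mouse against 2 WT-TgN3 mice, so nothing is read from it. In these fits edgeR gave 15 to 230 genes at an unadjusted p under 0.05, and DESeq2 called 24 at the 10% limit. Leaving out 1 mouse gave 0 (without R182C-TgN3 3) to 46 (without R182C-TgN3 6) genes; the counts were 2, 3 and 10 without WT-TgN3 5, 3 and 4. At the 20% limit, all chosen after seeing the data, DESeq2 called 1 gene, and edgeR called 0 with at least 5000 UMIs, without cells over 30 microglia UMIs, with batch, sex or age as covariate, and from 0 to 0 when a mouse was left out (125 to 308 at an unadjusted p under 0.05 over these fits). Reversed signs at the 20% limit were C1qb -0.0291 without cells over 30 microglia UMIs, and Tanc2 -0.341 without those cells, -0.0842 with at least 5000 UMIs, -0.0510 without R182C-TgN3 5 and -0.0220 without WT-TgN3 4. The cause was not tested.

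Pairing mice by age and label number as a replicate block gave 4 genes at the 10% limit, from 2 against 2 mice, and 0 at the 20% limit (118 at an unadjusted p under 0.05 by edgeR), from 5 against 5 mice. R182C-TgN3 3, with no partner, dropped out of both, and at the 10% limit so did R182C-TgN3 4 and WT-TgN3 4, whose partners had too few cells. Profiles of the same pair at the 20% limit, relative to their group, correlated at -0.255 to 0.0604. For mice of the same batch but other pairs the range was -0.0473 to 0.161, and for other batches -0.174 to 0.301. Whether the label numbers pair the mice cannot be told from these values. For the share the block gave 0.0470 percentage points (exact permutation p = 0.8125).

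By age, the 0 genes of the 10% limit (92 at an unadjusted p under 0.05 by edgeR, DESeq2 0) became 10 without a filter, 1 with all genes kept, 1 with at least 1 cell per mouse, and 0 to 0 when a mouse was left out. At the 20% limit, chosen after seeing the data for this contrast, there were 5, with DESeq2 7, with at least 5000 UMIs 5, without cells over 30 microglia UMIs 5, and 4 to 9 (without R182C-TgN3 3) when a mouse was left out. By sex, the 3 genes became 60 without a filter and 1 (without R182C-TgN3 4) to 11 (without R182C-TgN3 2) when a mouse was left out; at the 20% limit there were 24, with DESeq2 28, with at least 5000 UMIs 25, without cells over 30 microglia UMIs 14, and 9 (without WT-TgN3 4) to 31 (without R182C-TgN3 6) when a mouse was left out, with 10, 15 and 16 without R182C-TgN3 2, WT-TgN3 2 and R182C-TgN3 4, 17 without R182C-TgN3 3, 21 without R182C-TgN3 5 or WT-TgN3 1, and 22 without WT-TgN3 5. The interaction gave 17 genes without a filter and 0 to 8 (without R182C-TgN3 4) when a mouse was left out, with 1 without WT-TgN3 4 or WT-TgN3 5. The cause was not tested.

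The Ttr share of members (mean over mice 20.6%) moved by less than its SD in all 14 alternatives. The mean of the median UMIs per member (11453) became 26702 with at least 1000 genes, 29488 at the 20% limit, 28904 with no mitochondrial limit, 33791 with at least 5000 UMIs, 40157 with both the 20% limit and at least 5000 UMIs, and 29080.0 at the 20% limit without cells over 30 microglia UMIs, as larger cells were let in or smaller ones left out.

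Contrasts by age, sex and interaction could not be fitted with at least 20 cells per mouse or at least 5000 UMIs at the 10% limit, nor the interaction without WT-TgN3 3. Summed member UMIs per mouse of 36778 to 1708563 limit the 10% limit: 4074 genes were abundant enough to be tested there, against 8861 at the 20% limit, and the 4 mice with 3 to 8 members were left out of its fits.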
